A study of Mus musculus with 6 samples.

Results

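The genes described here mark cells other than blood: endothelium, mesenchyme, heart muscle, and epithelium or endoderm. They are the 41 genes, of 55487 in the deposited tables, whose symbol is on a list of 11 endothelial, 11 mesenchymal, 7 heart muscle and 12 epithelial or endoderm markers. All 41 were found. They are described library by library, as RNA of other lineages in cultures made to yield macrophages. Membership rests on the symbol and on no cut in measured values, but the list was chosen with earlier results of these data known.

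RNA was sequenced from mouse embryonic stem cells that had been turned into primitive macrophages, the first macrophages of the yolk sac and the source of microglia. The stem cells came from wild-type mice or from Ts1Cje mice, a Down syndrome model with an extra copy of a distal segment of chromosome 16, and each genotype had 3 libraries, labelled as lots. None of the 41 genes lies in that segment; the only member on chromosome 16, Cldn5, lies before it. Stem cells of both genotypes were kept in KnockOut DMEM with KnockOut serum replacement and LIF, and both were then given the same factors, M-CSF, IL-3 and SCF as well as VEGF, activin A, FGF2 and BMP-4, with RNA collected at day 12. The labels do not say whether a lot is a separate stem cell line or a separate differentiation of the same line, nor do they name a sort that would remove other cells. P-values therefore measure only the spread between these libraries, which may be technical.

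In such a culture stem cells first form mesoderm, and blood progenitors and macrophages arise from it through cells related to endothelium. The same mesoderm can give endothelium, mesenchyme and beating heart muscle, and stem cells that are given activin A can also form endoderm. Heart muscle is known by its own myosins, actin and troponins, simple epithelium by keratins and by the adhesion proteins E-cadherin and EpCAM, yolk sac endoderm by secreted proteins such as alpha-fetoprotein, mesenchyme by fibrillar collagens, and endothelium by the receptors of vascular growth factors and by VE-cadherin.

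The libraries held 25484294 to 32658148 counts each, with 17586 to 18935 genes detected. The macrophage list, 15 genes, was at 1 TPM or more in all 6 libraries for all 15 genes, and its summed TPM was 23470 to 45640. TPM is a level per gene length, scaled to the same total in each library. Wild-type replicate 1 stood apart. It scored 88.2 on the first principal component of all tested genes, against -38.7 to 18.7 for the other 5 libraries, so that results which rest on it are also given without it. For low counts even numbers were in excess, 60.7% to 63.6% of the counts from 1 to 20 against 49.1% to 51.6% of those from 1000 to 5000. How the reads of a pair were counted was not given in the sources used here, and limits from low counts may be too narrow. A count of 0 allows up to 3 counts, or 0.0888 to 0.121 CPM (counts scaled to the library total), if counting error alone is considered.

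The lineage genes were a small part of the RNA, and each library had its own mixture. In this and later sentences values are listed for replicates 1, 2 and 3 of each genotype in that order. The 41 genes together made up 161, 30.6 and 58.9 TPM in wild-type and 78.5, 115 and 71.9 TPM in Ts1Cje libraries. This was 0.106% to 0.358% of the summed TPM of the 15 macrophage genes in the same library. Wild-type replicate 1 had the highest sum and wild-type replicate 2 the lowest, and the sums of the 2 genotypes overlapped. Of the 41 genes, 36, 24 and 25 had counts in wild-type and 35, 35 and 33 in Ts1Cje libraries. Heart muscle genes held 45.1% of the members' TPM in wild-type replicate 1, against 1.91% to 8.70% in the other 5 libraries. Endothelial genes held most in wild-type replicate 2 (53.7%) and wild-type replicate 3 (63.4%), and epithelial or endoderm genes most in Ts1Cje replicate 1 (46.4%) and Ts1Cje replicate 3 (59.5%). The last 2 shares rested on Sox7, which held 15.2 of 36.5 TPM of that lineage in Ts1Cje replicate 1 and 21.6 of 42.8 TPM in Ts1Cje replicate 3. With Sox7 left out, endothelial genes came first in Ts1Cje replicate 1 (50.6% against 33.6%), and epithelial or endoderm genes stayed first in Ts1Cje replicate 3 (42.2% against 33.5%). Counted with the endothelial genes, since it also acts in endothelium, Sox7 would put endothelium first in both libraries. In Ts1Cje replicate 2 the mesenchymal genes came first, at 34.8%. In RNA from whole cultures, fewer cells of a type and less RNA per cell cannot be told apart.

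**Figure D1:**
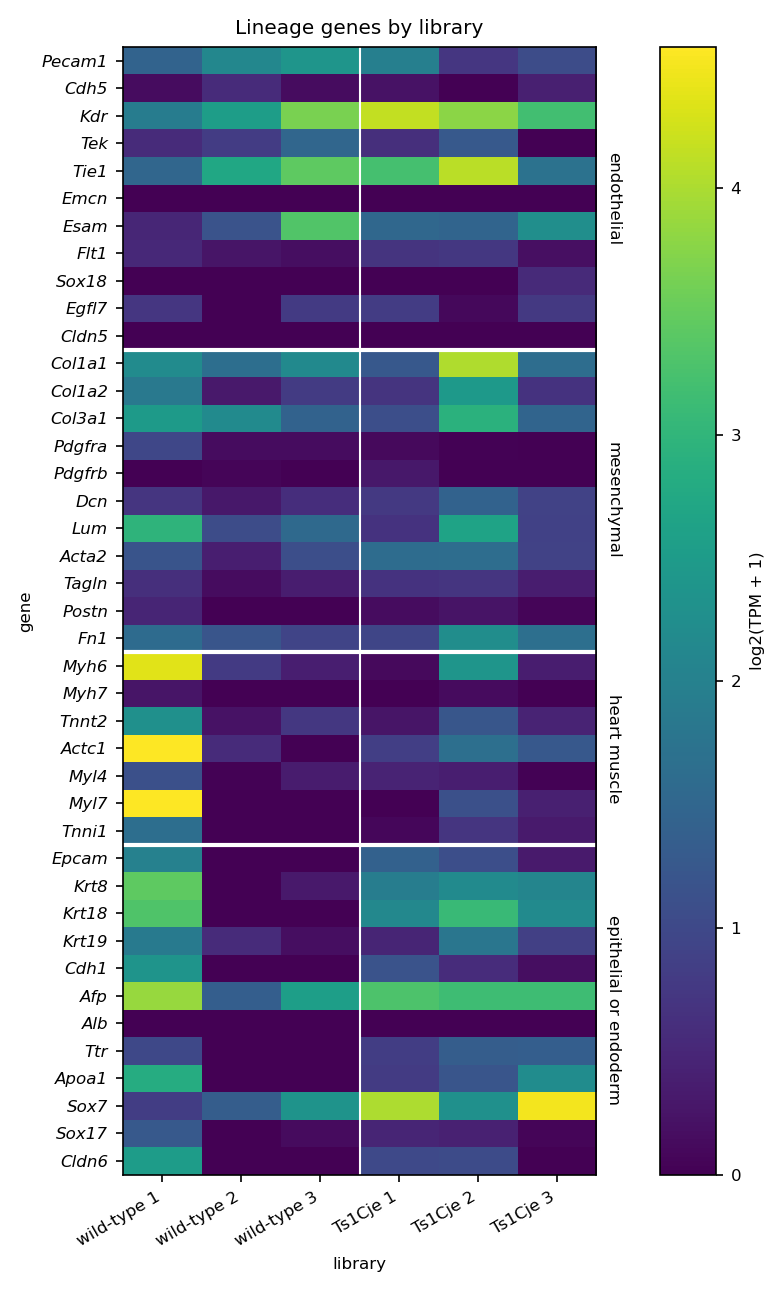
Level of each of the 41 lineage genes (rows, grouped by lineage) in each of the 6 libraries (columns), as log2(TPM + 1) by colour from 0 (dark) to the highest value (yellow). Heart muscle genes are bright in wild-type replicate 1, the keratins are near 0 in wild-type replicates 2 and 3, and Emcn, Cldn5 and Alb are at 0 in all 6 libraries.

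Heart muscle RNA was concentrated in wild-type replicate 1. All 7 heart muscle members were highest in that library, as were all 4 of them that had enough counts to be tested. Among all 13821 tested genes, 26.1% were highest in wild-type replicate 1. Summed over the 7 genes, wild-type libraries had 77.9, 2.36 and 2.82 CPM and Ts1Cje libraries 1.72, 15.4 and 3.04 CPM. Ts1Cje replicate 2 was the second highest, and the other 4 libraries lay within 1.72 to 3.04 CPM.

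Myh6 encodes the alpha myosin heavy chain of atrial and early heart muscle and lies on chromosome 14 at 54941921 to 54966927 (mm10, minus strand). Levels of Myh6 were 19.7, 0.718 and 0.307 TPM across wild-type and 0.0817, 4.25 and 0.295 TPM across Ts1Cje libraries. Its neighbour Myh7, the beta heavy chain, starts beyond a gap of 3756 bp and had counts of 14 in wild-type replicate 1, 7 in Ts1Cje replicate 2 and 0 in the other 4 libraries. The 2 chains are close copies of each other, so reads could have been assigned to either. Actc1, the cardiac actin, lies on chromosome 2 at 114047282 to 114053548 (minus strand). Wild-type libraries had 22.8, 0.486 and 0 TPM of Actc1, and Ts1Cje libraries had 0.792, 2.2 and 1.4 TPM. Actins are also close copies of each other. Myl7, the regulatory light chain of the atrium, lies on chromosome 11 at 5896637 to 5898782 (minus strand). Myl7 stood at 22.6, 0 and 0 TPM for wild-type and at 0, 1.17 and 0.321 TPM for Ts1Cje. Of the summed CPM of each gene over the 6 libraries, wild-type replicate 1 held 78.4% for Myh6, 82.7% for Actc1 and 94.0% for Myl7.

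Among the thin filament and light chain genes the same library led, at lower levels. Tnnt2 encodes the cardiac troponin T. Levels of Tnnt2 were 3.92, 0.174 and 0.681 TPM across wild-type and 0.201, 1.33 and 0.378 TPM across Ts1Cje libraries. Tnni1, the slow troponin I of embryonic heart and slow muscle, had no counts in wild-type replicates 2 and 3. Wild-type libraries had 2.13, 0 and 0 TPM of Tnni1, and Ts1Cje libraries had 0.0508, 0.638 and 0.263 TPM. Myl4, the atrial essential light chain, was low throughout. Myl4 stood at 1.17, 0.0242 and 0.272 TPM for wild-type and at 0.375, 0.297 and 0.0204 TPM for Ts1Cje. For each of these 3 genes wild-type replicate 1 stood above the other 5 libraries.

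The promoters of Actc1 and Myl7 are printed because a CArG box, the sequence bound by serum response factor in many muscle promoters, was found in each of them. They are the 250 bases before the start site in RefSeq on GRCm38.p6, 5′ to 3′ on the strand of the gene, with the CArG box in capitals. Actc1 is chr2:114052876-114053125 and Myl7 is chr11:5898783-5899032, both on the minus strand. The RefSeq start of Actc1 lies 673 bases inside the gene as the count table gives it, and that of Myl7 at the same base.
Actc1: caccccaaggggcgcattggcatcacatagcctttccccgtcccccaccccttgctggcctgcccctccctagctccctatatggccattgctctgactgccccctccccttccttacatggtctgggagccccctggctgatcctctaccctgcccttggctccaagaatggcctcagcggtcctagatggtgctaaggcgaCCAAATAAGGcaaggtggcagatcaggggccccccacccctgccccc
Myl7: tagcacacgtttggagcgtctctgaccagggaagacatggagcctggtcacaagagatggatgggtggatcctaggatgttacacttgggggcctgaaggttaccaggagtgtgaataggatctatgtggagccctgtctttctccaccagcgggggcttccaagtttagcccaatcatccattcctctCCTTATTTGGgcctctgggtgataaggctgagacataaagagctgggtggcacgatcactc
Of 32851 RefSeq promoters of the same length, 1.47% held a CArG box. Promoters were matched for 26 of the 41 members, by symbol, and for all 7 heart muscle genes, of which these 2 held the box and the other 5 did not. For Tnni1 the matched RefSeq start lay 19987 bases from the gene start in the count table. The bases before that gene start were not searched. On both strands TATAAA was in 4 of the 26 (12.4% of all promoters), GGGCGG in 6 (32.7%), and the MEF2 box (0.508%) and the HNF1 site GTTAATNATTAAC (0.00913%) in 0. A match describes the letters and not a bound site.

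Other genes of heart muscle, listed by lineage as well, were also highest in wild-type replicate 1 for the most part. Of these 15 genes, 12 were highest in wild-type replicate 1. Only 5 of the 15 had enough counts to be tested, and all 5 were highest there, against 26.1% of all tested genes. Nkx2-5, Nppa and Csrp3 are among the 12 but had equal counts in a Ts1Cje library. Summed, wild-type libraries had 29.9, 3.14 and 2.63 CPM and Ts1Cje libraries 7.07, 9.16 and 2.32 CPM of them. Tnnc1, the slow and cardiac troponin C, had the highest mean TPM among them. Levels of Tnnc1 were 7.95, 2.05 and 1.76 TPM across wild-type and 1.05, 3.97 and 2.54 TPM across Ts1Cje libraries. The Z-disc protein Actn2 was lower. Wild-type libraries had 3.18, 0.355 and 0.121 TPM of Actn2, and Ts1Cje libraries had 0.772, 0.969 and 0.0498 TPM. Gata4, a transcription factor of heart and of endoderm, did not follow wild-type replicate 1 alone. Gata4 stood at 2.15, 0 and 0.882 TPM for wild-type and at 2.16, 1.82 and 0.339 TPM for Ts1Cje. Pln, a regulator of the calcium pump, ranged from 0.240 to 1.58 TPM. Among further transcription factors of the heart on the list, Hand1, also of extraembryonic mesoderm, had 8, 0 and 0 counts for wild-type and 2, 10 and 2 for Ts1Cje. Nkx2-5 had 2 counts each in wild-type replicate 1 and Ts1Cje replicate 3, and Tbx5 and Hand2 had 0 in all 6 libraries.

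**Figure D2:**
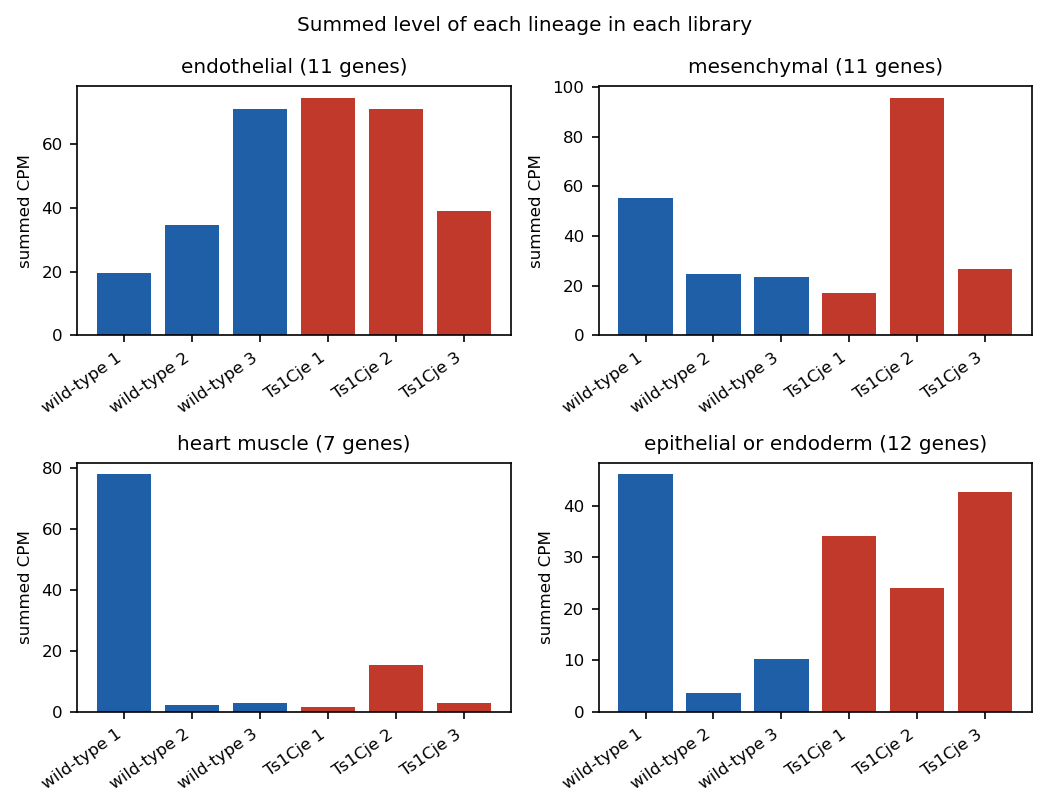
Summed CPM of the members of each lineage (bars, from 0) in each library, wild-type in blue and Ts1Cje in red. The heart muscle sum is 77.9 CPM in wild-type replicate 1 and at most 15.4 CPM elsewhere, the mesenchymal sum is highest in Ts1Cje replicate 2, and the epithelial or endoderm sum is lowest in wild-type replicates 2 and 3.

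Epithelial and endoderm RNA was low in wild-type replicates 2 and 3 and higher in the other 4 libraries. The 12 members summed to 46.1, 3.74 and 10.2 CPM in wild-type and to 34.2, 24.0 and 42.8 CPM in Ts1Cje libraries. Without Sox7 the other 11 summed to 45.2, 2.06 and 5.79 CPM for wild-type and to 18.02, 19.8 and 17.1 CPM for Ts1Cje. Counts above 0 were found for 11, 3 and 5 of the 12 genes in wild-type and for 11, 11 and 10 in Ts1Cje libraries. Of the 12 genes, 9 were highest in wild-type replicate 1 and 2 in Ts1Cje replicate 3, all with enough counts to be tested. Among all tested genes these shares were 26.1% and 15.5%.

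Krt8 and Krt18 encode the paired keratins of simple epithelium and are neighbours on chromosome 15, 23697 bp apart, Krt8 at 101996698 to 102004482 (minus strand) and Krt18 at 102028180 to 102032027 (plus strand). Levels of Krt8 were 9.84, 0 and 0.234 TPM across wild-type and 2.85, 3.58 and 3.23 TPM across Ts1Cje libraries. Wild-type libraries had 8.88, 0 and 0 TPM of Krt18, and Ts1Cje libraries had 3.38, 7.59 and 3.55 TPM. Both were at or near 0 in wild-type replicates 2 and 3 and between 2.85 and 9.84 TPM in the other 4 libraries. Krt19, a further simple keratin, had low values in more libraries. Krt19 stood at 2.68, 0.484 and 0.124 TPM for wild-type and at 0.395, 2.48 and 0.816 TPM for Ts1Cje. The adhesion genes were lower than Krt8 and Krt18 in the Ts1Cje libraries. Cdh1 encodes E-cadherin. Levels of Cdh1 were 4.13, 0 and 0 TPM across wild-type and 1.24, 0.502 and 0.124 TPM across Ts1Cje libraries. Epcam encodes the epithelial adhesion molecule EpCAM. Wild-type libraries had 3.02, 0 and 0 TPM of Epcam, and Ts1Cje libraries had 1.67, 1.15 and 0.258 TPM. Cldn6, a tight junction gene of early epithelia, had no counts in Ts1Cje replicate 3 either. Cldn6 stood at 4.74, 0 and 0 TPM for wild-type and at 1.01, 1.07 and 0 TPM for Ts1Cje. All 3 were at 0 counts in wild-type replicates 2 and 3 and highest in wild-type replicate 1.

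The secreted endoderm proteins differed from each other. Afp, alpha-fetoprotein of yolk sac and fetal liver, had counts in all 6 libraries. Levels of Afp were 13.6, 1.57 and 4.91 TPM across wild-type and 8.86, 7.95 and 7.94 TPM across Ts1Cje libraries. Its Ts1Cje values lay close together, at a mean of 8.25 ± 0.528 TPM (SD, n = 3), while wild-type values spread over 6.70 ± 6.22 TPM (SD, n = 3). Alb, albumin, lies 14134 bp from Afp on chromosome 5 and had 0 counts in all 6 libraries. Apoa1, the main protein of high-density lipoprotein, was highest in wild-type replicate 1. Wild-type libraries had 6.12, 0 and 0 TPM of Apoa1, and Ts1Cje libraries had 0.741, 1.3 and 3.67 TPM. Ttr, the carrier of thyroid hormone, was lower. Ttr stood at 0.997, 0 and 0 TPM for wild-type and at 0.772, 1.55 and 1.59 TPM for Ts1Cje. Neither was detected in wild-type replicates 2 and 3.

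Sox7 and Sox17 belong to the SOX F transcription factors, which act in both endoderm and endothelium, together with the endothelial member Sox18. Sox7 lies on chromosome 14 at 63943673 to 63950732 (plus strand) and had an order of libraries of its own. Levels of Sox7 were 0.788, 1.53 and 4.1 TPM across wild-type and 15.2, 3.93 and 21.6 TPM across Ts1Cje libraries. Ts1Cje replicates 1 and 3 were highest, Ts1Cje replicate 2 lay just under wild-type replicate 3, and wild-type replicate 1, which led for most other genes of the lineage, was lowest. Wild-type libraries had 1.44, 0 and 0.0962 TPM of Sox17, and Ts1Cje libraries had 0.384, 0.337 and 0.0396 TPM. Sox17 was highest in wild-type replicate 1, and Sox18 had 8 counts in Ts1Cje replicate 3 and 0 in the other 5 libraries. The 3 related genes thus did not share an order of libraries.

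Basement membrane genes divided the libraries as the keratins did. The sum of Col4a1, Col4a2, Sparc, Lamb1 and Lama1, which parietal yolk sac endoderm makes in large amounts and other cells also make, was 137, 7.38 and 8.56 TPM in wild-type and 31.1, 66.4 and 45.0 TPM in Ts1Cje libraries. These 5 genes come from the lists of other endoderm and mesenchymal genes and were put together after their values were seen. Col4a1, a chain of collagen IV, had the highest mean of them. Col4a1 stood at 55.5, 1.67 and 2.46 TPM for wild-type and at 9.76, 23.1 and 16.2 TPM for Ts1Cje. Sparc, a matrix protein, was next. Levels of Sparc were 38.5, 3.62 and 4.12 TPM across wild-type and 11.4, 26.1 and 17.4 TPM across Ts1Cje libraries. Lama1 encodes laminin alpha 1. Wild-type libraries had 9.74, 0.441 and 0 TPM of Lama1, and Ts1Cje libraries had 4.68, 5.07 and 3.62 TPM. In each of these 3 genes wild-type replicates 2 and 3 were the lowest libraries, and wild-type replicate 1 was highest.

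**Figure D3:**
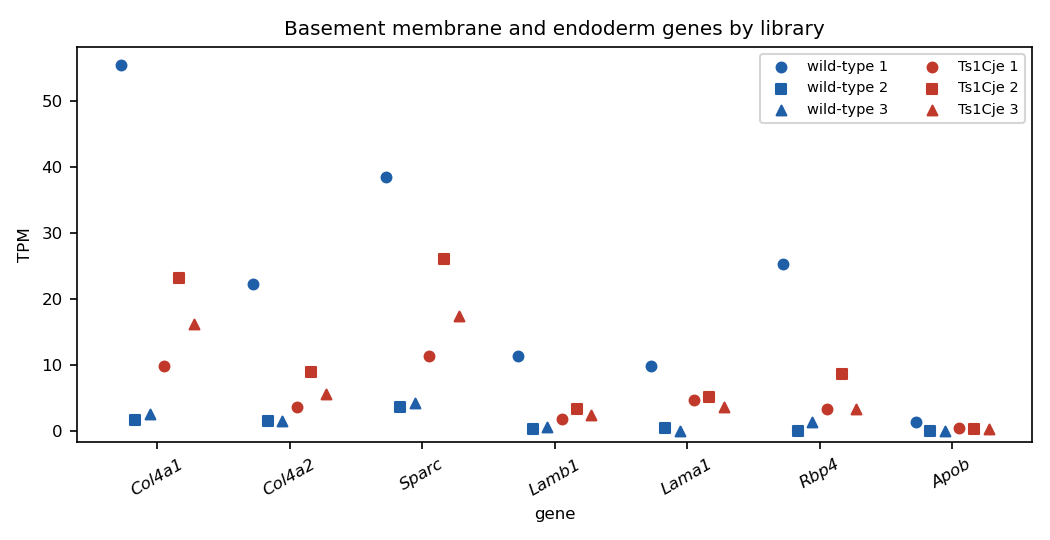
TPM of 7 basement membrane and endoderm genes in each library (symbols; wild-type in blue, Ts1Cje in red). Wild-type replicate 1 is the highest point for every gene shown, reaching 55.5 TPM for Col4a1, while wild-type replicates 2 and 3 stay at or below 4.12 TPM. The genes were picked and do not stand for their whole lists. Of genes not shown, Dab2 was lowest in wild-type replicate 1 and Apoa2 ranged only from 2.29 to 3.97 TPM.

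Of the other 23 genes of epithelium and endoderm, 15 were highest in wild-type replicate 1. Only 9 had enough counts to be tested, and 7 of these were highest there, against 26.1% of all tested genes. Fga and Spink1, among the 15, had equal counts in Ts1Cje replicate 2. Rbp4, the retinol carrier, was also lowest in wild-type replicates 2 and 3. Rbp4 stood at 25.4, 0 and 1.37 TPM for wild-type and at 3.27, 8.55 and 3.24 TPM for Ts1Cje. Trf, transferrin, and Dab2, an endocytic adaptor of yolk sac endoderm, were far higher than any member, at 637 to 3497 TPM and 429 to 1133 TPM, and Dab2 is also made by macrophages. Trf was highest in wild-type replicate 1, and Dab2 was lowest there. Trf also stood at 1819 and 783 TPM in wild-type replicates 2 and 3, where Rbp4 was at 0 and 1.37 TPM. Which cells made Trf was not tested. Transcription factors of endoderm on the list had different levels. Gata6, a factor of primitive endoderm and heart, had 77, 22 and 34 counts for wild-type and 8, 27 and 10 for Ts1Cje, at most 1.40 TPM. Hnf4a, of visceral endoderm and liver, had 38 counts in wild-type replicate 1, 6 in Ts1Cje replicate 1 and 0 elsewhere. Foxa2 had 8 counts in Ts1Cje replicate 2, 4 in Ts1Cje replicate 3 and 0 elsewhere. Foxa1 had 0 counts in all 6 libraries, and Sox17, itself a factor of definitive endoderm, was described above.

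Fibrillar collagens, the defining genes of mesenchyme, were highest in Ts1Cje replicate 2. Of the 11 mesenchymal members, 7 were highest in Ts1Cje replicate 2 and 3 in wild-type replicate 1. Of the 7 members that had enough counts to be tested, 6 were highest in Ts1Cje replicate 2, against 12.3% of all tested genes. The sum of the 11 members was 55.4, 24.6 and 23.4 CPM in wild-type and 17.2, 95.6 and 26.7 CPM in Ts1Cje libraries. Wild-type replicate 1 was thus second, and the other 4 libraries lay within 17.2 to 26.7 CPM.

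Col1a1 and Col1a2 encode the chains of collagen I and Col3a1 that of collagen III. Levels of Col1a1 were 3.6, 2.14 and 3.48 TPM across wild-type and 1.38, 15.2 and 2.1 TPM across Ts1Cje libraries. Wild-type libraries had 2.6, 0.244 and 0.739 TPM of Col1a2, and Ts1Cje libraries had 0.619, 4.55 and 0.594 TPM. Col3a1 stood at 4.62, 3.58 and 1.7 TPM for wild-type and at 1.14, 6.54 and 1.78 TPM for Ts1Cje. Ts1Cje replicate 2 led for all 3, and Ts1Cje replicate 1 was among the lowest libraries. Lum and Dcn encode the matrix proteoglycans lumican and decorin, both on chromosome 10. Levels of Lum were 6.81, 1.1 and 1.97 TPM across wild-type and 0.598, 5.25 and 0.85 TPM across Ts1Cje libraries. Wild-type libraries had 0.628, 0.231 and 0.511 TPM of Dcn, and Ts1Cje libraries had 0.69, 1.71 and 0.858 TPM. Lumican was highest in wild-type replicate 1 and Ts1Cje replicate 2. Decorin was lower, and its 3 Ts1Cje values lay above its 3 wild-type values. Fn1, fibronectin, is made by mesenchyme and also by macrophages. Fn1 stood at 2.01, 1.31 and 0.913 TPM for wild-type and at 0.948, 3.72 and 2.18 TPM for Ts1Cje. Acta2, smooth muscle actin, was at about the same low level. Levels of Acta2 were 1.29, 0.307 and 1.15 TPM across wild-type and 2.08, 2.09 and 0.861 TPM across Ts1Cje libraries. In Fn1 and Acta2 the highest library exceeded the lowest by less than in Col1a1.

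The receptors that define mesenchyme were low. Pdgfra reached 0.955 TPM, in wild-type replicate 1, and 0 to 0.115 TPM elsewhere. Pdgfrb had 2 counts in wild-type replicate 2, 14 in Ts1Cje replicate 1 and 0 in the other 4 libraries. Tagln, a smooth muscle protein, and Postn, periostin, stayed at or under 0.635 and 0.3803 TPM. An antisense gene, Gm48529, overlaps 1241 of the 1988 exonic bases of Tagln, and the strand setting of the counting was not stated in the labels.

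Of the 24 other mesenchymal genes, 7 were highest in wild-type replicate 1 and 8 in Ts1Cje replicate 2. Of the 14 with enough counts to be tested, 6 and 4 were, against 26.1% and 12.3% of all tested genes. Vim, the intermediate filament vimentin, and S100a6, a calcium-binding protein, were the highest of the list, at 187 to 1081 TPM and 26.1 to 302 TPM. Macrophages make both as well, and both were lowest in wild-type replicate 1. Lox, which crosslinks collagen, was chosen after its values were seen. Wild-type libraries had 6.13, 3.03 and 1.1 TPM of Lox, and Ts1Cje libraries had 0.115, 5.89 and 0.712 TPM. It was highest in wild-type replicate 1 and Ts1Cje replicate 2, like Lum. Markers of fibroblasts, smooth muscle and pericytes on the list went different ways. Cspg4, the proteoglycan NG2 of pericytes and other cells, was well above 1 TPM in all 6 libraries. Cspg4 stood at 5.1, 17.7 and 42 TPM for wild-type and at 12, 16.1 and 4.83 TPM for Ts1Cje. It was highest in wild-type replicate 3 and lowest in wild-type replicate 1 and Ts1Cje replicate 3. Des, the muscle filament desmin, had 52, 0 and 16 counts for wild-type and 6, 34 and 6 for Ts1Cje, and Myl9, a smooth muscle light chain, reached 2.37 TPM, in Ts1Cje replicate 2. Thy1, Cnn1 and Rgs5 had 0 counts in all 6 libraries.

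Endothelial RNA came from a few receptor and adhesion genes, while genes that define vessels were at or near 0. The 11 members summed to 19.7, 34.5 and 71.3 CPM in wild-type and 74.6, 71.0 and 39.1 CPM in Ts1Cje libraries. Wild-type replicate 1 was lowest here, where it was highest for heart muscle. Of the 11 genes, of which 7 had enough counts to be tested, 0 were highest in wild-type replicate 1, against 26.1% of all tested genes.

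Kdr encodes the main VEGF receptor, present on early mesoderm as well as on endothelium, and lies on chromosome 5 at 75932827 to 75978458 (minus strand). Levels of Kdr were 2.8, 4.84 and 11.5 TPM across wild-type and 16.8, 12.7 and 8.08 TPM across Ts1Cje libraries. All 3 Ts1Cje values lay above those of wild-type replicates 1 and 2, and wild-type replicate 3 lay among them. Tie1, a receptor of endothelium and early blood cells, had levels like those of Kdr. Wild-type libraries had 1.85, 5.59 and 9.78 TPM of Tie1, and Ts1Cje libraries had 8.36, 16.1 and 2.31 TPM. Tek, the angiopoietin receptor, was lower. Tek stood at 0.477, 0.762 and 1.85 TPM for wild-type and at 0.524, 1.41 and 0 TPM for Ts1Cje. Wild-type replicate 3 and Ts1Cje replicate 2 were the higher libraries for both Tie1 and Tek, and Ts1Cje replicate 3 was low in both.

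Esam encodes an adhesion molecule of endothelium and blood progenitors. Levels of Esam were 0.412, 1.25 and 9.01 TPM across wild-type and 1.88, 1.76 and 3.76 TPM across Ts1Cje libraries. Wild-type replicate 3 held 48.8% of its summed CPM. Pecam1, an adhesion molecule of endothelium that monocytes and macrophages carry too, was highest in wild-type replicates 2 and 3. Wild-type libraries had 1.75, 3.32 and 4.24 TPM of Pecam1, and Ts1Cje libraries had 2.92, 0.645 and 1.09 TPM. Flt1, a VEGF receptor of endothelium and monocytes, and Egfl7, a secreted endothelial protein, stayed at or under 0.680 and 0.767 TPM. Cdh5, which encodes VE-cadherin and defines endothelium, had 4, 18 and 4 counts in wild-type and 8, 0 and 14 in Ts1Cje libraries, at most 0.481 TPM. Emcn and Cldn5, of mature vessels, had 0 counts in all 6 libraries.

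**Figure D4:**
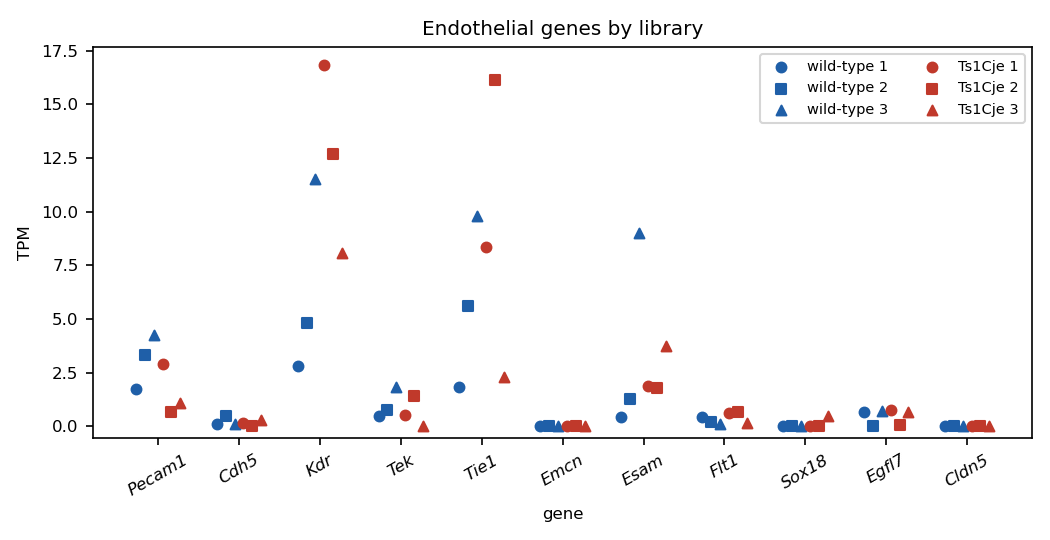
TPM of the 11 endothelial members in each library (symbols; wild-type in blue, Ts1Cje in red). Kdr and Tie1 reach 16.8 and 16.1 TPM in Ts1Cje replicates 1 and 2, whereas Cdh5 stays at or under 0.481 TPM and Emcn and Cldn5 are at 0.

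Other endothelial genes were low apart from Eng. Eng, endoglin, which macrophages also make, had the highest mean of the 18 genes. Eng stood at 10.9, 17.5 and 23.7 TPM for wild-type and at 9.95, 11.1 and 3.85 TPM for Ts1Cje. Its 3 Ts1Cje values, as CPM, lay below the 3 wild-type values, with a log2 fold change of -1.08 ± 0.41 (SE) that did not pass edgeR (adjusted p = 0.792). Icam2, an adhesion molecule of endothelium and blood cells, ranged from 0.199 to 6.30 TPM, and Lyve1, of lymphatic endothelium and some macrophages, from 0.162 to 3.65 TPM. Vwf, of endothelium and platelets, ranged from 0.118 to 2.12 TPM. Erg, an endothelial transcription factor, had 4 counts in wild-type replicate 2 and 0 elsewhere, Robo4 had 2 counts in Ts1Cje replicate 3 and 0 elsewhere, and Clec14a had 0 counts in all 6 libraries.

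No lineage gene was called different between the genotypes by the main test. Of the 41 members, 29 had enough counts to be tested, 7 endothelial, 7 mesenchymal, 4 of heart muscle and 11 epithelial or endoderm. The other 12 had too few counts for the filter. The edgeR quasi-likelihood test on counts called 0 of the 29 after Benjamini-Hochberg adjustment over all 13821 genes tested, where it called 0.00724% of all genes as higher and 0% as lower in Ts1Cje. At an unadjusted p under 0.05 there was 1 of the 29, Sox7, against 2.99% of all genes higher and 2.8% lower (5.79% together), while limma-voom called 0 members. DESeq2 called 1, again Sox7, where it called 0.232% of all genes as higher and 0.174% as lower. Log2 fold changes were positive, that is, higher in Ts1Cje, for 14 of the 29, against 49.2% of all genes tested, and negative for 15, with a median of -0.03 against -0.01 over all genes tested. By lineage the median was 0.18 for the endothelial, 0.69 for the mesenchymal, -1.80 for the heart muscle and -0.03 for the epithelial or endoderm members.

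Between libraries the members spread widely. The median range of log2 CPM over the 6 libraries was 4.09 for the 29 tested members and 0.94 for all tested genes. Many members had low counts or 0 in some libraries, so that counting error and the prior count also enter this range. The genes compared were not matched for level. In 1 of the 29, Dcn, the lowest Ts1Cje value exceeded the highest wild-type value, and in 0 the reverse held, against 6.38% and 5.72% of all genes. Dcn had a log2 fold change of 1.24 ± 0.60 (SE) with an adjusted p of 0.792 by edgeR. It did not pass.

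Sox7 had the largest positive log2 fold change of the tested members, at 2.71 ± 0.78 (SE). Its mean was 2.14 ± 1.74 TPM for wild-type and 13.5 ± 8.92 TPM for Ts1Cje (SD, n = 3). It did not pass edgeR (adjusted p = 0.792) and passed DESeq2 (adjusted p = 0.0341). Over all alternatives its adjusted p was 0.0341 to 0.990, and with each library left out in turn its log2 fold change was 2.11 to 3.57. Kdr had 0.97 ± 0.48 (SE) and an adjusted p of 0.792 by edgeR, with 6.39 ± 4.56 TPM for wild-type and 12.5 ± 4.37 TPM for Ts1Cje (SD, n = 3). Unadjusted, the edgeR p of Sox7 was 0.00892, and neither gene passed after adjustment over all genes.

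The heart muscle difference turned with a single library. The ratio of the mean summed CPM of the 7 genes, Ts1Cje over wild-type, was -2.04 on the log2 scale with all 6 libraries and 1.38 without wild-type replicate 1. The positive value rested in turn on Ts1Cje replicate 2, at 15.45 CPM. Ts1Cje replicates 1 and 3 had 1.72 and 3.04 CPM, and wild-type replicates 2 and 3 had 2.36 and 2.82 CPM. Means were 27.7 ± 43.5 CPM for wild-type and 6.74 ± 7.58 CPM for Ts1Cje (SD, n = 3). Myh6 had a log2 fold change of -2.23 ± 1.73 and Actc1 of -2.43 ± 1.68 (SE), with adjusted p of 0.828 and 0.816 by edgeR. Without wild-type replicate 1 they were 1.56 and 2.55. DESeq2 gave no adjusted p for Myh6 and Actc1, nor for Krt8 and Krt18.

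The epithelial or endoderm ratio was larger without that library. Their summed CPM was 20.0 ± 22.8 for wild-type and 33.6 ± 9.40 for Ts1Cje (SD, n = 3), a log2 ratio of 0.75. Without Sox7 the means were 17.7 ± 23.9 and 18.3 ± 1.35 CPM, a log2 ratio of 0.05. That wild-type mean was carried by wild-type replicate 1, at 45.2 CPM without Sox7. Wild-type replicates 2 and 3 had 2.06 and 5.79 CPM without Sox7, below the 17.1 to 19.8 CPM of the Ts1Cje libraries. With all 6 libraries the ratio thus rested on Sox7, and wild-type replicate 1 made it smaller. With Sox7 kept and wild-type replicate 1 left out it was 2.27. Among all members, 8 had 0 counts in both wild-type replicates 2 and 3 while their Ts1Cje mean was above what 0 allows there (3 counts per library, averaged over both as CPM): Postn, Tnni1, Epcam, Krt18, Cdh1, Ttr, Apoa1 and Cldn6. These members were picked by this rule, so that their Ts1Cje mean lay above the limit beforehand. The share of all genes that meet the rule was not counted, and the limit considers counting error alone. Against that limit Krt18 was at least 20.6-fold higher in the Ts1Cje libraries, at 2.32 CPM. In wild-type replicate 1 it was at least 38.9-fold higher, at 4.37 CPM, so that the Ts1Cje mean did not exceed every wild-type library. For Cdh1 these bounds were 8.25-fold and 57.6-fold. EdgeR called 0 members with wild-type replicate 1 left out, as with all 6 libraries.

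The mesenchymal ratio rested on Ts1Cje replicate 2. It was 0.43 on the log2 scale with all libraries, from means of 34.4 ± 18.2 CPM for wild-type and 46.5 ± 42.7 CPM for Ts1Cje (SD, n = 3), and -0.65 without Ts1Cje replicate 2. Col1a1 had a log2 fold change of 0.99 ± 0.83 (SE) with an adjusted p of 0.835 by edgeR, and -0.77 without that library. The endothelial ratio was 0.56, from 41.8 ± 26.6 and 61.6 ± 19.6 CPM (SD, n = 3), and stayed positive, at 0.22 to 1.18, as each library was left out in turn. It rested on Kdr: without that gene the means were 22.8 ± 13.3 and 24.1 ± 10.6 CPM, a log2 ratio of 0.08. The 18 other endothelial genes had a ratio in the opposite direction, -0.70, from 36.0 ± 14.1 CPM for wild-type and 22.1 ± 5.28 CPM for Ts1Cje (SD, n = 3). Eng, which macrophages also make, was the largest part of that sum in each library. It had 15.05, 23.6 and 31.4 CPM in wild-type and 13.0, 14.6 and 5.63 CPM in Ts1Cje libraries. The ratio without Eng was not calculated.

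**Figure D5:**
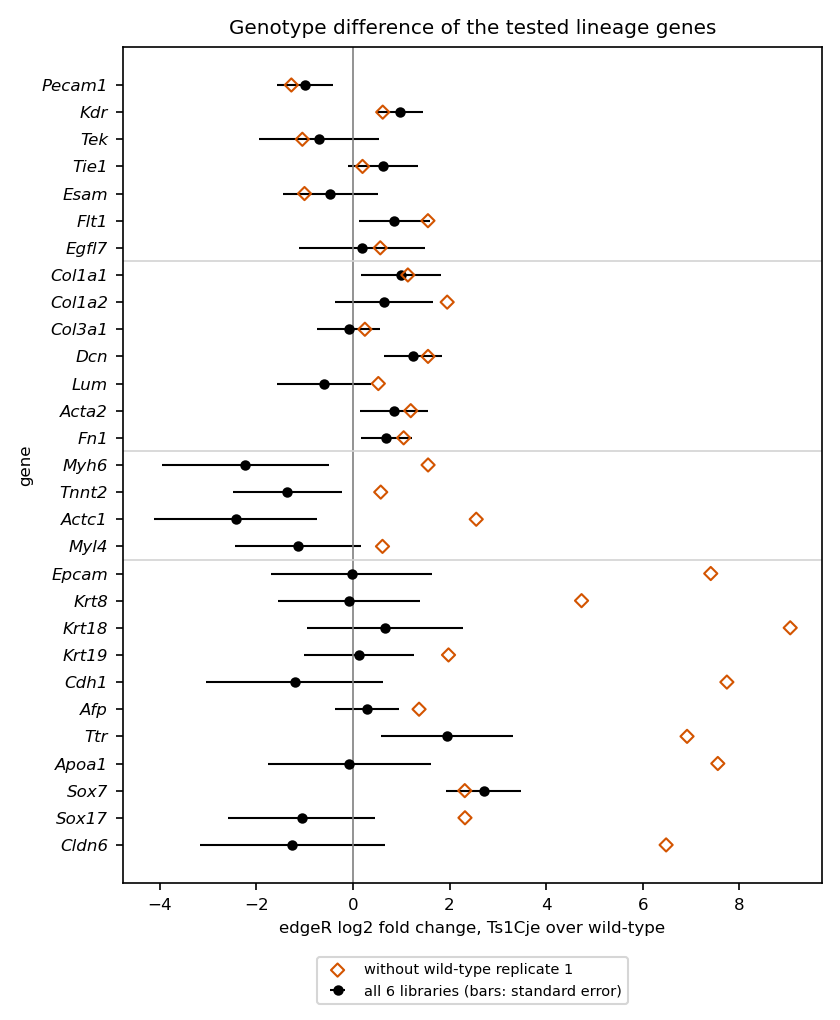
EdgeR log2 fold change of the 29 tested members (x axis, Ts1Cje over wild-type) with all 6 libraries (black points, bars are the standard error) and without wild-type replicate 1 (open diamonds); grey lines separate the lineages. All 4 heart muscle genes move from negative to positive without that library; diamonds beyond 4 belong to genes at or near 0 in wild-type replicates 2 and 3, whose fitted values depend on the prior count and are no bounds.

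Counting limits what can be said of single genes. Besides Tagln, antisense or overlapping genes, shown per partner, share 804 of the 4772 exonic bases of Sox17, 523 (Gm31251) and 484 (Mhrt) of the 8616 of Myh7 and 101 of the 1958 of Krt8, so that reads of the partner could be counted with them.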

How the data were processed

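Libraries were made from total RNA with the SMART-seq HT Plus kit, per the labels' protocols. Tools named in the submitters' processing notes were HISAT2 2.1.0, featureCounts 1.6.3, Trimmomatic 0.38 and FastQC 0.11.7, with build mm10. Not given in the sources used here were settings for strand, for read pairs and for reads with several positions. The authors deposited raw counts per gene and TPM per gene, 1 column per library, and 0 other columns of per-sample values were present. All 41 members had the same coordinates in GENCODE M21.

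Counts were tested with edgeR 4.0.16 in R 4.3.3 (filterByExpr at 10 counts per gene and 15 in total, TMM factors, genotype as the only term, quasi-likelihood test, Benjamini-Hochberg over 13821 genes, threshold 0.05). The standard error is the log2 fold change divided by the root of F. CPM use the library total and TMM factor, and principal components log2 CPM with a prior count of 2. Sums over a lineage are descriptions, with no test. Members and lists were chosen with earlier results of these data known. All members are accounted for; those that reach 1 TPM in a library have the value of each library, and of each other list up to 4 genes with the highest mean TPM are named, plus others given as 0 or near 0 or chosen after their values were seen. Alternatives were RLE and upper-quartile factors, other filters, DESeq2 1.42.0, limma-voom and log2 TPM fits with limma 3.58.1, the lot number as a replicate block and each library left out. The tests were checked on simulated data.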

Additional observations from a re-analysis of the deposited data

How the results depend on the processing

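The count of genes called by edgeR, 1 over all genes, was 3 with no filter, 56 with DESeq2 and 0 with the replicate block, and 1 to 6 as each library was left out, with 6 without wild-type replicate 3. Of the lineage genes 0 were called under each alternative except DESeq2, which called 1, Sox7. The log2 ratio of summed levels was 0.22 to 1.18 for endothelial, -0.65 to 0.96 for mesenchymal, -3.54 to 1.38 for heart muscle and 0.26 to 2.27 for epithelial or endoderm genes as each library was left out. With summed TPM, other scaling, or without Pecam1, Fn1 and Flt1, each ratio moved by less than the spread between libraries. Without Sox7 and Kdr, an alternative chosen after seeing the data, the epithelial or endoderm ratio was 0.05 and the endothelial ratio 0.08. Of 434 log2 fold changes of single members under 16 alternatives 373 kept their direction and stayed uncalled, 60 changed sign and 1 passed. Those that were negative with all libraries and became positive were, with limma-voom Cdh1 2.52, Esam 0.42, Cldn6 0.94, Sox17 0.72, Apoa1 2.73, Epcam 2.73, Krt8 3.02 and Actc1 0.93; on log2(TPM + 1), with or without a minimum mean of 1 TPM Esam 0.084, Apoa1 0.46, Epcam 0.28 and Krt8 0.83; on log2(TPM + 0.1) Cdh1 0.70, Esam 0.39, Cldn6 0.47, Apoa1 2.05, Epcam 1.56, Krt8 2.26 and Actc1 0.40; with the replicate block Cdh1 1.76, Esam 0.40, Cldn6 0.51, Apoa1 2.94, Epcam 2.34, Krt8 2.71 and Actc1 0.92. As each library was left out, sign changes occurred within these ranges: Actc1 -3.01 to 2.55, Afp -0.19 to 1.37, Apoa1 -1.07 to 7.55, Cdh1 -2.17 to 7.74, Cldn6 -1.85 to 6.48, Col1a1 -0.77 to 1.47, Col1a2 -0.96 to 1.95, Col3a1 -1.13 to 0.32, Egfl7 -0.41 to 0.70, Epcam -0.62 to 7.41, Esam -1.003 to 1.59, Krt19 -0.81 to 1.98, Krt8 -0.68 to 4.73, Lum -2.15 to 0.53, Myh6 -5.15 to 1.56, Myl4 -1.70 to 0.61, Sox17 -1.66 to 2.32, Tek -1.98 to 0.0024, Tie1 -0.10 to 1.23, Tnnt2 -2.42 to 0.58. Values above 4 come from members at or near 0 in wild-type replicates 2 and 3 and depend on the prior count. The cause of these changes was not tested. Deviations of same-numbered libraries from the genotype means correlated at -0.176, -0.0451 and -0.0612, and those of libraries with different numbers at -0.111 to 0.169. With so few libraries these values cannot tell whether lots were paired between the genotypes. With 3 libraries a genotype and low counts for many members, a difference smaller than the spread between libraries was not detectable.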

Other observations

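RNA of most globins on the list was highest in wild-type replicate 3 and low in wild-type replicate 1. The embryonic Hbb-bh1 was an exception, with 24 counts in Ts1Cje replicate 1, 4 in wild-type replicate 3 and 0 elsewhere. Hba-a1, adult alpha globin, was at 0.291, 7.19 and 17.4 TPM in wild-type and 5.18, 1.84 and 0 TPM in Ts1Cje libraries, and the embryonic Hbb-y at 0, 2.31 and 7.79 TPM and 1.74, 1.09 and 0 TPM. Of the 12 genes of the erythroid list 8 were highest in wild-type replicate 3, several of them with few counts. Only 3 of the 12 had enough counts to be tested, and 2 of these 3 were highest there, against 13.8% of all tested genes. Epor, the erythropoietin receptor, was at 53.5 to 114.5 TPM and highest in wild-type replicate 1. Globin genes are close copies of each other, so that reads could have been assigned to either of a pair. Hba-a1 did not pass edgeR (log2 fold change -1.83 ± 1.47 (SE), adjusted p = 0.831).

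Among megakaryocyte and mast cell genes Pf4, platelet factor 4, was at 138 to 771 TPM, and the next highest, Kit, was at 0 to 2.88 TPM. Fcer1a, Ms4a2, Mcpt8 and Cma1, of mast cells and basophils, had 0 counts in all 6 libraries. Stem cell genes were at or near 0. Sox2, Esrrb, Fgf4 and Dnmt3l had 0 counts throughout, Nanog had 2 counts in Ts1Cje replicate 3, and Pou5f1 had 8, 2 and 1 counts in Ts1Cje libraries and 0 in wild-type. Dppa5a had 6, 10 and 14 counts in Ts1Cje libraries and 0 in wild-type, too few to be tested. Klf4, which macrophages also make, was at 0.677 to 4.93 TPM. Of the neural list Nes, nestin, which is not confined to neural cells, was at 9.47 to 35.04 TPM. Map2, a microtubule protein of neurons and other cells, had 10, 0 and 0 counts for wild-type and 31, 44 and 29 for Ts1Cje, at most 0.307 TPM. Each Ts1Cje value of Map2 thus exceeded each wild-type value, as in 6.38% of all tested genes, and its log2 fold change of 3.11 ± 1.33 (SE) did not pass edgeR (unadjusted p = 0.0487, adjusted p = 0.792). Ncam1 and Pax6 had at most 14 and 19 counts in a library, and Sox1, Elavl3, Neurod1 and Olig2 had 0 throughout. Of 7 genes of the primitive streak 5 had 0 counts in all 6 libraries, and Mixl1 had 2, 38 and 0 counts in wild-type and 22, 22 and 36 in Ts1Cje libraries.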
